A study of Homo sapiens with 10 samples.

Results

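The plasminogen activation system of PC-3 cells was followed through 7 genes, PLAT, PLAU, PLAUR, SERPINE2, SERPINB2, SERPINB5 and TFPI2, out of 28090 named genes on the array. The members were taken as all non-control spots whose gene name in the scanner output was one of these symbols, which gave 28 spots for 10 probes. PLAT was put on the list because of its large drop in these same arrays, so its values are given as a description with no test, and the other 6 genes were tested. All 7 genes had a probe that passed the filter on dim signals, as did 9 of the 10 probes, and no probe outside the rule carried the accession of a member transcript.

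The series holds 10 single-color Agilent whole genome arrays of mRNA from PC-3 cells, an androgen-independent human prostate cancer cell line, with 2 arrays per group. Untreated cells were harvested at 0 h, and the remaining groups were harvested after 24 h in DMSO (the solvent), 60 µM luteolin (a dietary flavonoid), 60 µM gefitinib (an inhibitor of the EGF receptor tyrosine kinase) or 60 µM of each drug together, the last 3 groups having been given drugs dissolved in DMSO. The titles number the 2 arrays of a group as biological replicates of this single cell line, and nothing further is stated about how the cultures were separated. The comparisons ask how each drug alone and their co-administration changed transcript levels over the solvent.

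Several facts bear on every value. For the 6 drug-treated arrays the name of the scanner output carries another treatment than the label, so the groups are called by their labels here: arrays labelled luteolin have names with gefitinib, those labelled gefitinib have names with both drugs, and those labelled luteolin plus gefitinib have names with luteolin. The arrays lay on 3 slides, no slide held every group, and 63.4 to 70.4% of probes were well above background on each array. The 75th percentile of the signal, used to scale the arrays, was 1177 to 1402 on the 4 control arrays, 1041 and 1173 with luteolin, 628 and 651 with gefitinib, and 539.8 and 865 with both drugs. Values below are log2 of the signal relative to that percentile unless a raw signal is named, so 0 is the 75th percentile of the array. Without this scaling the median gene differed from DMSO by -0.17 with luteolin, -0.82 with gefitinib and -0.78 with both drugs on the log2 scale, against 0.08, 0.22 and 0.16 with it, and changes are to be read relative to those medians. PC-3 cells expressed the epithelial genes KRT8, KRT18, EPCAM and CDH1 and the mesenchymal filament gene VIM well above background on 10 of 10 arrays, while the RefSeq probe of KLK3, prostate-specific antigen, was above background on 0 of 10. TMPRSS2 and KLK2, prostate genes looked for as low or absent, were above background on 10 and 9 of 10. Of genes that mark other cell types, PTPRC (leukocytes) and DCN (fibroblasts) were above background on 0 of 10 arrays, CDH5 on 1, COL1A2 on 2, COL1A1 on 9 and CD68 and PECAM1 on 10.

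Plasmin is a serine protease that dissolves fibrin and degrades matrix proteins around cells. It is released from plasminogen by either of the activators, tissue-type (PLAT) and urokinase-type (PLAU), and the urokinase receptor PLAUR holds PLAU on the cell surface. Serpins are suicide inhibitors that trap serine proteases in a covalent complex, and Kunitz-type inhibitors such as TFPI2 block the active site reversibly. High urokinase activity is a well known property of invasive prostate cancer lines, PC-3 among them.

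Sequences upstream of the members are shown because several members shifted between the drug groups, and the window in front of the start site is where general promoter motifs are read. Windows of 250 bases ending just before the annotated start were taken from RefSeq on GRCh38.p14 for the 6 tested genes, with 8 windows in all because PLAU and SERPINE2 each have a pair of annotated starts. Both strands were searched for a loose form of the AP-1 motif, TGANTCA with any base at N, the TATA box TATAAA, the GC box GGGCGG and the CRE TGACGTCA. The sequences below run 5′ to 3′ on the strand of the gene, and capitals mark motif matches, on either strand. SERPINB2 (chr18:63887455-63887704, plus strand) and TFPI2 (chr7:93890754-93891003, minus strand) are printed because they carry an AP-1 match, and the downstream start of PLAU (chr10:73910882-73911131, plus strand) because it carries none.
SERPINB2: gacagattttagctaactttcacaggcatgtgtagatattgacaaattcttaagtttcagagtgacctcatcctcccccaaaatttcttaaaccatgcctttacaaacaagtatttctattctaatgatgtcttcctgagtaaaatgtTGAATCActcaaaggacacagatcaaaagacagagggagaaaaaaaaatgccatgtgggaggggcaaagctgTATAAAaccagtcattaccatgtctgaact
TFPI2: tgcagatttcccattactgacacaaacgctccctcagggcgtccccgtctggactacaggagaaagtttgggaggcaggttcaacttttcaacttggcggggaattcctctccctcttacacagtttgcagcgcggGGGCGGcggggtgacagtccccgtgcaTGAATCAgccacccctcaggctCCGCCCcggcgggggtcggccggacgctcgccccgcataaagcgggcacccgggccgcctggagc
PLAU: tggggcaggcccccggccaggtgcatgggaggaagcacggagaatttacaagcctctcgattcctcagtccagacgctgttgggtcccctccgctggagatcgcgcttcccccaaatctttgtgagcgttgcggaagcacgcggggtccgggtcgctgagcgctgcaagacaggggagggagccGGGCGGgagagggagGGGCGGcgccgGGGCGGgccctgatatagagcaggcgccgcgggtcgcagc

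AP-1 matches were present upstream of 4 of the 6 genes, PLAUR, SERPINB2, SERPINB5 and TFPI2, where 6.57% of 35116 RefSeq promoter windows of this length hold one. They began 186, 102, 146 and 87 bases before the start, in that order. The match read TGAGTCA in PLAUR and TGAATCA in SERPINB2, SERPINB5 and TFPI2, so the count rests on the free middle base. GC boxes stood upstream of 4 of the 6 genes (PLAU, SERPINE2, SERPINB5 and TFPI2), against 42.6% of all windows, and the matches in SERPINB5 overlapped. PLAU had them at its downstream start only. PLAU and SERPINE2 were each searched in a pair of windows, so these counts of genes and shares of windows are unlike measures. Only SERPINB2, among the windows searched, had a TATA box, 30 bases before its start, against 10.7% of all windows. No window held the CRE, which 1.65% of all windows do. These matches are a description of the letters and say nothing of which factors were bound.

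PLAT, the tissue-type activator, had its lowest levels on the arrays labelled luteolin plus gefitinib. Its single probe, on hg18 chromosome 8 at 42151969 to 42152028, was spotted 10 times per array. Levels were 4.68 and 4.41 at 0 h, 4.22 and 3.93 with DMSO, 3.15 and 3.13 with luteolin, 4.40 and 4.06 with gefitinib, and 1.297 and 1.9999 with both drugs. The order of the group means was 0 h, gefitinib, DMSO, luteolin and then both drugs, with the gefitinib and DMSO arrays overlapping and every other pair of neighbours separate. The separation of 0 h from gefitinib was 0.0048. In RNA from whole cultures, fewer cells with a transcript and less of it per cell cannot be told apart. The 2 arrays with both drugs lay below all the others, and they differed by more than any other pair of replicates for this gene (SD 0.50 against 0.02 to 0.24, n = 2).

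Relative to DMSO, mean PLAT was -0.93 with luteolin, 0.16 with gefitinib and -2.43 with both drugs, the last a 5.38-fold lower level. These differences stood at percentiles 8.02, 47.6 and 0.35 of all 19718 genes kept. PLAT was chosen for its drop, so its low rank follows from that choice and is no support for the drop. Within a slide the difference between both drugs and DMSO was -2.92 on slide 1 and -1.93 on slide 2. The 10 spots of an array varied with an SD of 0.06 to 0.09, so the spread between replicate arrays, not between spots, limits these values. On the raw scale the 2 arrays with both drugs were close, at 2124 and 2159, against 25115 and 19595 with DMSO, and the unscaled mean difference was -3.37. With gefitinib the raw signals were 13761 and 10514, so the small positive difference from DMSO turned to -0.88 without scaling and was negative with quantile normalization too.

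The difference of PLAT with both drugs stood -1.65 from the sum of the single-drug differences. Under the treatments in the scanner output names the same difference would be 3.52, and PLAT with both drugs would stand 0.16 above DMSO instead of below it. The array pair with low PLAT would then be called luteolin.

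**Figure D1:**
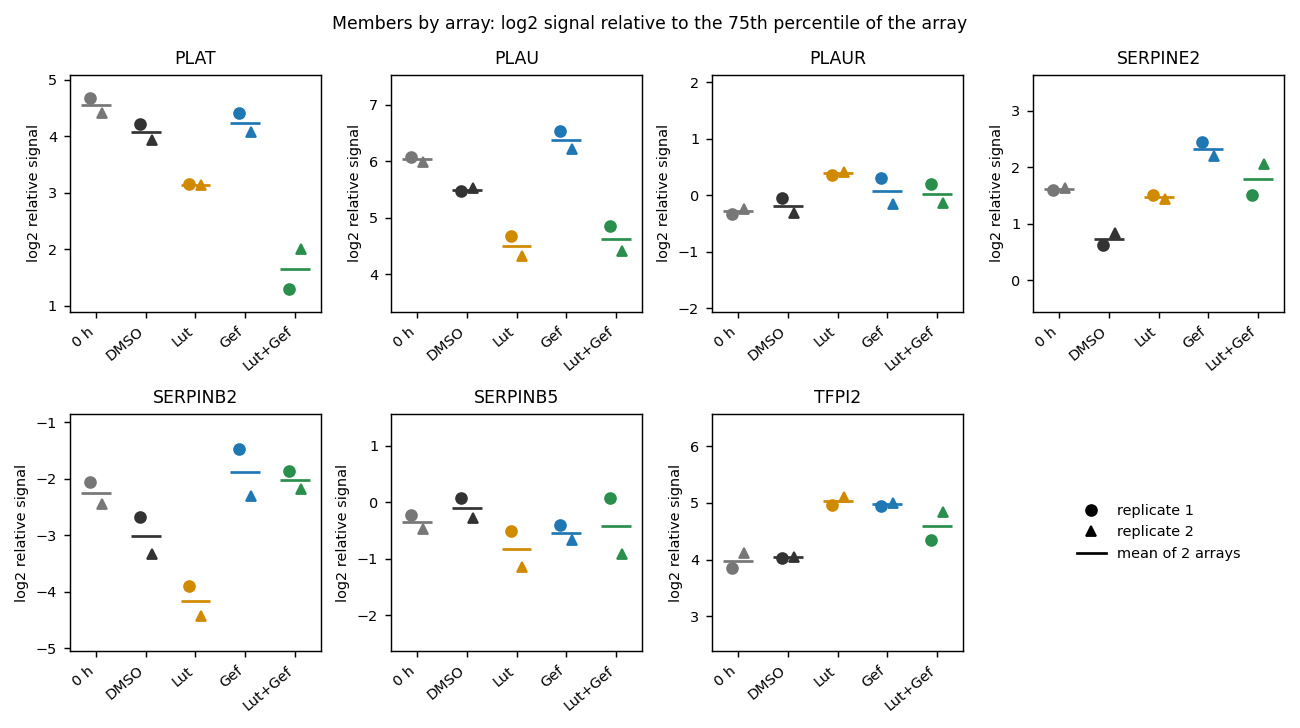
Level of each member on each of the 10 arrays, as log2 signal over the 75th percentile of each array, by labelled group, with the circle for replicate 1, the triangle for replicate 2 and the bar for their mean. Every panel spans the same range of log2 units, and PLAT with both drugs (1.297 and 1.9999) is the pair farthest from its DMSO arrays.

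PLAU, the urokinase-type activator, had lower levels in both groups labelled with luteolin than in the controls. It was also spotted 10 times per array, with a probe on hg18 chromosome 10 at 75347056 to 75347115. Levels were 6.08 and 5.98 at 0 h, 5.47 and 5.52 with DMSO, 4.66 and 4.33 with luteolin, 6.53 and 6.21 with gefitinib, and 4.84 and 4.41 with both drugs. Both groups with luteolin lay below the controls on every array, overlapping each other, and gefitinib lay above all control arrays on this scale.

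In the limma model over all probes, PLAU with luteolin was -0.9987 ± 0.21 (SE, n = 2 per group) relative to DMSO, with a Benjamini-Hochberg adjusted p of 0.0108, and was a little inside the 2-fold minimum set for a call. With both drugs it was -0.87 ± 0.21 (limma, adjusted p = 0.0138), also inside 2-fold, and -1.81 without scaling. The gefitinib difference of 0.88 ± 0.21 (limma, adjusted p = 0.00881) was inside 2-fold too, and it shrank to 0.04 with quantile normalization and to -0.16 without scaling, so no direction is given to it. Against 0 h, PLAU fell by 1.54 with luteolin and by 1.41 with both drugs on the log2 scale (limma, adjusted p = 0.00157 and 0.00243), or 2.90-fold and 2.65-fold. The step from 0 h to DMSO itself was -0.54 (95% interval -1.02 to -0.06, limma adjusted p = 0.761), and the 0 h and DMSO arrays did not overlap. Co-administration and luteolin alone differed by 0.13 (95% interval -0.35 to 0.61). PLAU fell by 1.75 with both drugs relative to gefitinib alone (limma, adjusted p = 0.000385).

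The activators can be set side by side for both drugs against luteolin alone. PLAT stood at -1.49 in that comparison, with no overlap of arrays, and PLAU at 0.13, with overlap. No test of this contrast between the genes was made, since PLAT was chosen for its drop.

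PLAUR, the receptor that anchors urokinase, had a narrow range of levels. They were -0.33 and -0.24 at 0 h, -0.05 and -0.31 with DMSO, 0.37 and 0.41 with luteolin, 0.30 and -0.16 with gefitinib, and 0.19 and -0.13 with both drugs, from a probe on hg18 chromosome 19 at 48861338 to 48861397. The luteolin arrays were the 2 highest of the 10, and the gefitinib and both-drug arrays overlapped those with DMSO. PLAUR passed the call rule in no comparison. Relative to DMSO the luteolin difference was 0.57 (95% interval 0.10 to 1.04, limma adjusted p = 0.0766) and relative to 0 h it was 0.67 (limma, adjusted p = 0.0403), under 2-fold. Intervals against DMSO were -0.22 to 0.73 with gefitinib and -0.26 to 0.68 with both drugs, and without scaling both differences were negative (-0.79 and -0.73).

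SERPINE2, also called protease nexin 1, a cell-surface serpin that inhibits urokinase, plasmin and thrombin, had its lowest mean level with DMSO. The probe lies on hg18 chromosome 2, within 224548841 to 224550539. Levels were 1.60 and 1.63 at 0 h, 0.63 and 0.84 with DMSO, 1.5003 and 1.44 with luteolin, 2.45 and 2.196 with gefitinib, and 1.52 and 2.06 with both drugs. The DMSO arrays were the 2 lowest and the gefitinib arrays the 2 highest on this scale, with the other groups between them. On the raw scale the 0 h arrays were the 2 highest, at 4236 and 3636, against 3564 and 2878 with gefitinib.

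SERPINE2 rose 3.02-fold with gefitinib over DMSO (log2 1.59 ± 0.21, limma adjusted p = 0.000835) and 2.08-fold with both drugs (1.06 ± 0.21, adjusted p = 0.00665). With luteolin the difference was 0.74 ± 0.21 (limma, adjusted p = 0.0334), under 2-fold. Without scaling these differences were 0.55, 0.11 and 0.48 and none passed. DMSO itself stood -0.88 from 0 h (95% interval -1.35 to -0.40), with an unadjusted p of 0.00256 in limma that did not hold after adjustment (0.413). Against 0 h the gefitinib difference was 0.71 (limma, adjusted p = 0.0199), under 2-fold, and that of both drugs 0.18 (95% interval -0.30 to 0.65), so the size of the difference depends on which control is used. Without scaling these differences from 0 h turned to -0.29 and -0.73. The 0 h and DMSO groups are shared by these comparisons. The call with both drugs was lost without DMSO replicate 1 (difference 0.95) or without replicate 2 of both drugs (0.78), and fell under 2-fold with normexp (0.97) and with quantile normalization (0.99).

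SERPINB2, the plasminogen activator inhibitor 2, which inhibits urokinase, moved in opposite directions from DMSO with the single drugs. Its signal was modest, well above background on 10 of 10 arrays, from a probe on hg18 chromosome 18 at 59721938 to 59721997. Levels were -2.06 and -2.45 at 0 h, -2.67 and -3.33 with DMSO, -3.90 and -4.43 with luteolin, -1.47 and -2.30 with gefitinib, and -1.86 and -2.18 with both drugs. The luteolin arrays were the 2 lowest, the DMSO arrays came next, and 0 h, gefitinib and both drugs overlapped. Another SERPINB2 probe, at 59721182 to 59721241 on the same chromosome, was well above background on 0 of 10 arrays and was not tested.

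SERPINB2 fell by 1.16 ± 0.34 on the log2 scale with luteolin over DMSO (limma, adjusted p = 0.0391), 2.24-fold, and rose 2.18-fold with gefitinib (1.12 ± 0.34, adjusted p = 0.0240). With both drugs it was 0.98 ± 0.34 above DMSO (limma, adjusted p = 0.0490), a little under 2-fold. The gap between both drugs and luteolin alone was the widest of this gene apart from that between the single drugs, 2.15 ± 0.34 (limma, adjusted p = 0.00251) or 4.43-fold, and it passed without each array in turn. The luteolin call against DMSO held in 4 of the 10 fits that left out 1 array. It was lost without either 0 h array (adjusted p = 0.0539 in limma for each), without DMSO replicate 1 or 2 (difference -0.83 and -1.49) and without luteolin replicate 1 or 2 (-1.43 and -0.90), and also with no filter on dim probes (limma, adjusted p = 0.0782). The gefitinib call held in 8 of 10, and was lost without DMSO replicate 2 (0.79) or gefitinib replicate 1 (0.71). Without scaling, the gefitinib difference from DMSO was 0.08 and that of both drugs 0.04, while that of luteolin was -1.41. With normexp background correction the luteolin difference was -0.62 and did not pass, and that of gefitinib was 0.95, under 2-fold. In a fit of the compared groups alone the gefitinib adjusted p was 0.0608 (limma).

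SERPINB5, or maspin, a clade B serpin known as a tumor suppressor that does not act as a protease inhibitor in the usual way, passed in no comparison with either of its probes. For the brighter probe (hg18 chromosome 18, 59321878 to 59321937), levels were -0.23 and -0.48 at 0 h, 0.07 and -0.28 with DMSO, -0.50 and -1.14 with luteolin, -0.40 and -0.68 with gefitinib, and 0.07 and -0.92 with both drugs. The arrays with both drugs spanned nearly the whole range. The difference from DMSO was -0.71 with luteolin (95% interval -1.495 to 0.07), -0.43 with gefitinib (-1.21 to 0.35) and -0.32 with both drugs (-1.10 to 0.46). The dimmer probe, at 59311228 to 59311287, gave -0.78, -0.64 and -0.39 for the same differences, each with the same sign. Without scaling, the gefitinib difference of the brighter probe was -1.47 (limma, adjusted p = 0.0366).

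TFPI2, a Kunitz-type inhibitor of plasmin that is deposited in the extracellular matrix, was higher with luteolin. Levels of its brighter probe (hg18 chromosome 7, 93354511 to 93354570) were 3.85 and 4.11 at 0 h, 4.03 and 4.05 with DMSO, 4.96 and 5.11 with luteolin, 4.95 and 5.00 with gefitinib, and 4.35 and 4.84 with both drugs. For this probe, all drug-treated arrays lay above the 4 control arrays on this scale, and those with both drugs lay below those with either drug. On the raw scale only the luteolin arrays lay above all controls, with signals of 36550 and 35948 against 22028 and 21258 with DMSO, 20146 and 20104 with gefitinib, and 17672 and 15514 with both drugs.

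Relative to DMSO, TFPI2 with luteolin was 1.00 ± 0.20 higher (limma, adjusted p = 0.00857), a little under the 2-fold minimum, and relative to 0 h it rose 2.08-fold (1.06 ± 0.20, adjusted p = 0.00551). The latter call was lost without 0 h replicate 1 (0.93) or luteolin replicate 2 (0.98), and with the median of both probes (0.76), with normexp (0.98) and without scaling (0.84). The gefitinib difference from DMSO of 0.94 ± 0.20 (limma, adjusted p = 0.00536) was 0.27 with quantile normalization and -0.10 without scaling, so its direction turned with the scaling. With both drugs it was 0.56 (95% interval 0.11 to 1.01, limma adjusted p = 0.0503), and -0.39 without scaling. The dimmer probe, at 93352939 to 93352998, gave smaller differences from DMSO of 0.77, 0.53 and 0.36, none of 2-fold. Relative to 0 h its luteolin difference was 0.46 and did not pass (limma, adjusted p = 0.109). Its levels overlapped: 0 h replicate 2, at 0.993, lay above replicate 2 of gefitinib (0.984) and of both drugs (0.795). Replicate 1 of both drugs (1.04) lay above gefitinib replicate 2.

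**Figure D2:**
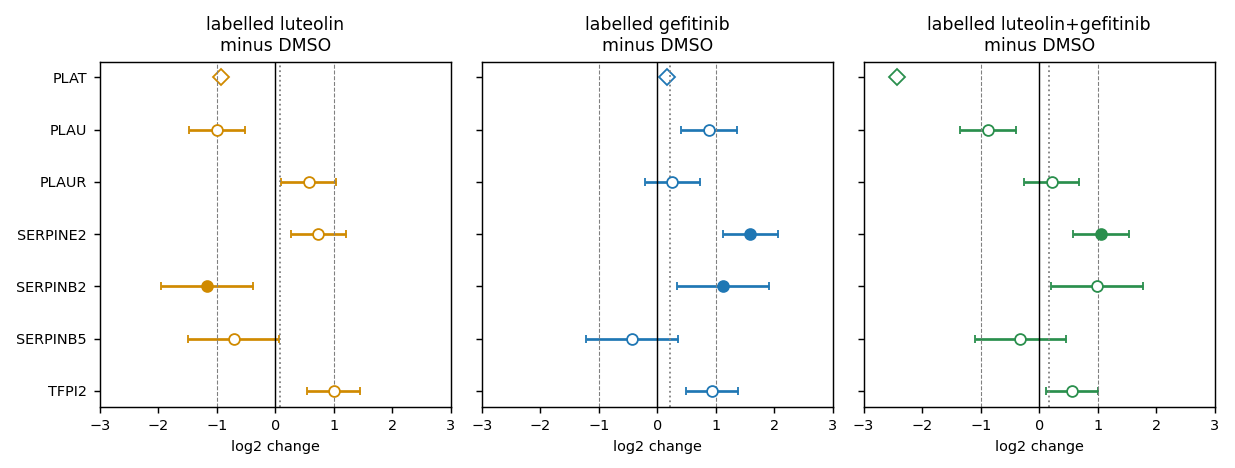
Difference of each member from DMSO in each labelled drug group, in log2 units, with 95% intervals from limma for the 6 tested genes (filled where called) and an open diamond without interval for PLAT, which was not tested. Dashed lines mark 2-fold and the dotted line the median of all genes; SERPINE2 and SERPINB2 are filled with gefitinib, SERPINB2 with luteolin and SERPINE2 with both drugs.

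Counted over the 6 tested genes, 1 was called with luteolin over DMSO (SERPINB2, lower), where 13.4% of all 19718 genes were called, 7.22% higher and 6.17% lower. With gefitinib over DMSO, 2 were called (SERPINE2 and SERPINB2, higher) against a background of 29.9% of all genes, 15.6% higher and 14.3% lower, and with both drugs 1 (SERPINE2, higher) against 19.8%, 12.1% higher and 7.69% lower. The split of all genes into higher and lower moved with the scaling: with gefitinib it was 3082 to 2814 here, 2045 to 3046 with quantile normalization, 2619 to 1334 with normexp and 305 to 8107 without scaling. With both drugs it was 2386 to 1517, 1664 to 2051, 1848 to 744 and 538 to 7296 in that order, and with luteolin 1423 to 1216, 1267 to 1321, 907 to 789 and 626 to 1477. The median difference of the 6 genes from DMSO was -0.07, 0.91 and 0.39, beside 0.08, 0.22 and 0.16 for all genes kept. With 6 genes these counts are not a result about the group as a whole. These 3 comparisons share the DMSO arrays.

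Against 0 h, luteolin called 3 genes (PLAU and SERPINB2 lower, TFPI2 higher), where 16.1% of all were called, 8.26% higher and 7.85% lower. Gefitinib called 0 against 0 h (background 29%, 14.5% in each direction). Both drugs called 1 (PLAU, lower) against a background of 19.8%, 11.5% higher and 8.32% lower. The solvent alone called 0 of 6 against 0 h with limma. That comparison called 0.0355% of all genes, 0.0254% higher and 0.0101% lower. Both drugs against luteolin alone called 1 (SERPINB2, higher; background 21%, 11.3% higher and 9.75% lower), both drugs against gefitinib alone called 1 (PLAU, lower; background 27%, 17.2% higher and 9.76% lower), and luteolin against gefitinib called 2 (PLAU and SERPINB2, lower with luteolin; background 36.6%, 18.1% higher and 18.5% lower).

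Additivity of the drugs was tested on the log2 scale, by subtracting both single-drug differences from that of the combination, each taken against DMSO. SERPINE2 had an interaction of -1.27 ± 0.29 (limma, adjusted p = 0.0119) and TFPI2 of -1.37 ± 0.28 (adjusted p = 0.00694). Both thus ended lower than the sum of the single-drug changes, as 2 of 6 genes against 34.2% of all genes, 17.9% higher and 16.3% lower. The DMSO level enters this term, and for SERPINE2 it was low, 0.73 against 1.61 at 0 h. Against 0 h, SERPINE2 stood at 0.18 with both drugs, -0.14 with luteolin and 0.71 with gefitinib, so the size of its interaction depends on the control. The dimmer TFPI2 probe gave -0.94 ± 0.27 (limma, adjusted p = 0.0294). The SERPINE2 interaction did not pass without DMSO replicate 1 (-1.17, limma adjusted p = 0.0533) or without scaling (-0.93, adjusted p = 0.0885). The interactions of PLAU (-0.75, 95% interval -1.43 to -0.07, limma adjusted p = 0.0833), PLAUR (-0.61, -1.28 to 0.05), SERPINB2 (1.03, -0.08 to 2.13) and SERPINB5 (0.82, -0.28 to 1.93) did not pass. With the replicate number as a block, PLAU and SERPINB2 passed as well, which made 4 of 6 where 36.4% of all genes passed in that fit.

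**Figure D3:**
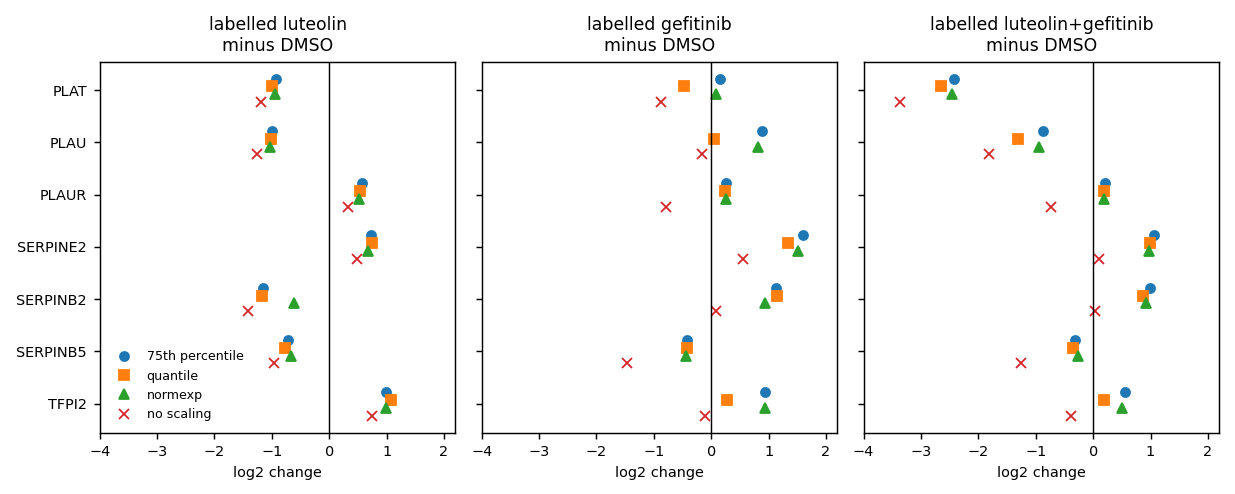
Difference of each member from DMSO in each labelled drug group, in log2 units, under 4 ways of making the arrays comparable: the 75th percentile, quantile normalization, normexp background correction with the same percentile, and no scaling. PLAT with both drugs is the lowest value of its panel under each, whereas the gefitinib values of PLAU and TFPI2 move from 0.88 and 0.94 to -0.16 and -0.10.

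Other genes of plasminogen activation and its cell-surface partners were read from a list of 17, of which 14 passed the filter. With gefitinib 6 of the 14 rose over DMSO and 0 fell, with luteolin 2 rose and 2 fell, and with both drugs 3 rose and 1 fell. Of all genes kept, 15.6% were called higher and 14.3% lower with gefitinib, 7.22% and 6.17% with luteolin, and 12.1% and 7.69% with both drugs, and these shares stand beside the counts of every list below. A gene detected in 1 group alone passes the filter through that group, so the counts of the lists are descriptions. Over the 10 genes of the list that were well above background on all 10 arrays, 3 rose with gefitinib, 2 rose and 1 fell with luteolin, and 1 rose with both drugs. The median differences of the list were 0.71, -0.23 and 0.44. Without scaling the counts were 2 higher and 2 lower, 2 and 3, and 2 and 3, and the median with gefitinib was -0.33.

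SERPINI1, or neuroserpin, an inhibitor of PLAT, rose with luteolin (1.70 ± 0.23, limma adjusted p = 0.00177) under each of the 4 scalings. CPB2, a carboxypeptidase that slows fibrinolysis, and HRG, a plasma glycoprotein that binds plasminogen, were well above background on 0 of 2 DMSO arrays and 2 of 2 gefitinib arrays, at least 4.80-fold and 2.70-fold higher. Both were also well above background on 0 of 2 arrays at 0 h and with luteolin. They passed the filter through the groups in which they were high, so no test is given for them, although they are among the 6 counted as higher with gefitinib.

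Among tissue factor pathway and Kunitz inhibitor genes, 8 of 11 listed passed the filter. With luteolin 1 rose, with gefitinib 2 rose and 1 fell, and with both drugs 0 were called (all against DMSO). TFPI, the tissue factor pathway inhibitor related to TFPI2, rose with luteolin (2.22 ± 0.23, limma adjusted p = 0.000777) and stood at 0.26 with both drugs. F2RL1, a receptor cleaved by trypsin-like proteases, fell by 2.27 with gefitinib (limma, adjusted p = 0.00357), and both of these calls passed under each of the 4 scalings. SPINT2, an inhibitor of hepsin and matriptase, and APP, which has Kunitz-containing isoforms, rose with gefitinib by 1.23 and 1.03 (limma, adjusted p = 0.00257 and 0.00760), and their differences were 0.18 and -0.01 without scaling.

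Matrix metalloproteinases, which plasmin can activate, and their inhibitors had 10 of 12 listed genes past the filter. Against DMSO 2 rose with luteolin, 4 with gefitinib and 3 with both drugs, and 0 fell, while against 0 h 1 rose and 2 fell with luteolin, 2 rose with gefitinib and 0 were called with both drugs. Counting only the 8 genes detected on each of the 10 arrays, 1, 2 and 1 rose against DMSO. MMP3, stromelysin 1, rose by 2.23 ± 0.41 with gefitinib (limma, adjusted p = 0.00340) and by 1.79 with both drugs (adjusted p = 0.0117). MMP1, interstitial collagenase, rose by 1.98 ± 0.32 with luteolin (limma, adjusted p = 0.00360) and was -0.23 with both drugs. It also rose by 1.07 with gefitinib (limma, adjusted p = 0.0208), a call lost with quantile normalization (0.91) and without scaling (0.03). MMP10 was called higher than DMSO in each drug group (1.97, 1.82 and 1.44 with luteolin, gefitinib and both), from a signal well above background on 1 of 2 DMSO arrays, and with normexp only the gefitinib difference passed. MMP7, at least 4.52-fold higher with gefitinib, was well above background on 0 of 2 DMSO arrays. The DMSO arrays themselves were low for MMP10 and MMP3, at -2.13 and -1.56 from 0 h, neither of which passed in limma. MMP7, well above background on 2 of 2 arrays at 0 h, was at least 2.36-fold lower with DMSO, which did not pass either. Against 0 h, MMP10 stood at -0.16 with luteolin, -0.30 with gefitinib and -0.69 with both drugs, so its direction turned with the control. MMP3 and MMP7 stood 0.67 and 0.94 above 0 h with gefitinib, and 0.24 and 0.43 with both drugs, with 0 of these called. With luteolin MMP3 fell by 1.39 from 0 h (limma, adjusted p = 0.0353), and MMP1 rose by 1.54 (adjusted p = 0.00826). MMP7 stood at -1.51 from 0 h with luteolin, but was well above background on 1 of 2 luteolin arrays. No test is given for it, although it is among the 2 counted as lower. Without scaling 1 was higher with luteolin, 2 were higher and 1 lower with gefitinib, and 0 were higher and 4 lower with both drugs.

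Of the membrane serine proteases, 5 of 8 listed genes passed the filter, and 2 rose with luteolin, 2 with gefitinib and 3 with both drugs over DMSO. PRSS8, or prostasin, rose in all 3 drug groups (1.12, 1.34 and 1.05), TMPRSS6 with gefitinib and with both drugs (1.45 and 1.26), PRSS22 with luteolin (1.23) and ST14, matriptase, with both drugs (1.02). None of these rises passed without scaling.

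The other clade B serpins had 5 of 11 listed genes past the filter. SERPINB1, an inhibitor of neutrophil elastase, rose with luteolin (1.29 ± 0.29, limma adjusted p = 0.0138), SERPINB7 fell with luteolin by 1.10 (adjusted p = 0.0237) and SERPINB8 fell with both drugs by 1.69 (adjusted p = 0.00240). SERPINB3 passed with gefitinib but was below background on all arrays of both groups, so no fold is given. In serpins of other clades 5 of 15 passed the filter. SERPINF1, or PEDF, was higher with gefitinib (well above background on 1 of 2 arrays, and on 0 of 2 with DMSO). SERPINH1, the collagen chaperone HSP47, fell by 1.11 with both drugs (limma, adjusted p = 0.0151). The SERPINH1 call was lost with normexp (-0.81), and that of SERPINF1 without scaling.

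**Figure D4:**
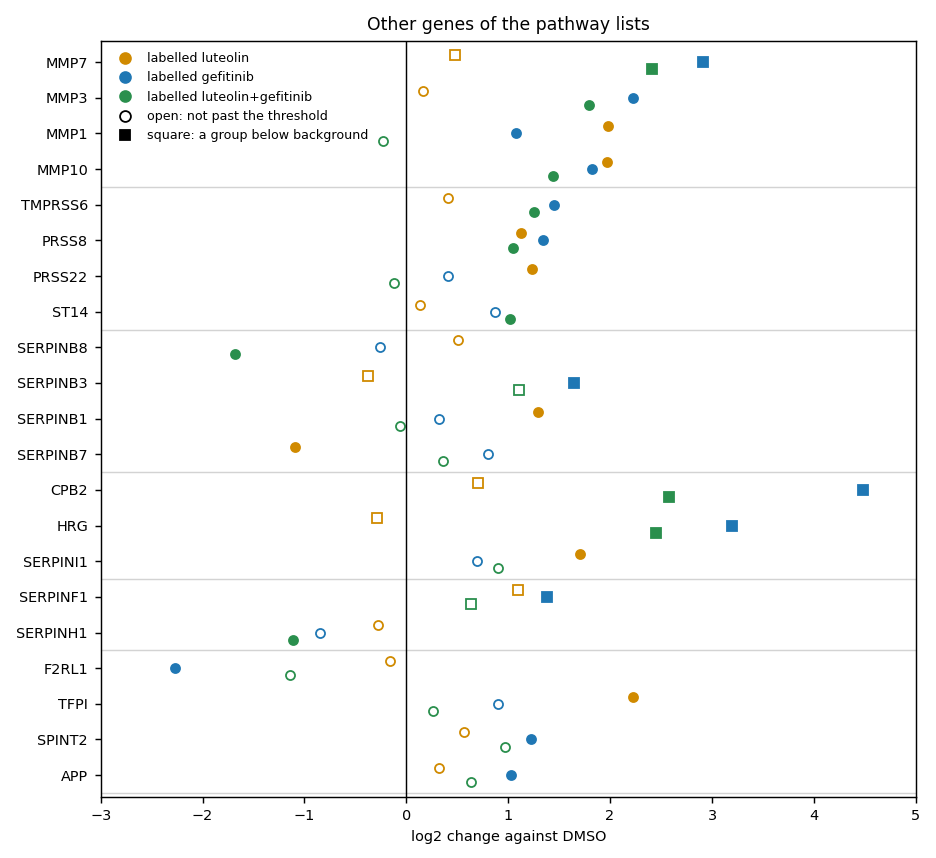
Difference from DMSO in log2 units for the genes named from the pathway lists, grouped by list, in the 3 labelled drug groups (orange luteolin, blue gefitinib, green both drugs). Filled symbols passed the call rule, and squares mark comparisons in which a group was below background on both arrays, where the plotted value is no measured fold; MMP7, CPB2 and HRG are the farthest to the right.

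The genes whose levels over the 10 arrays ran closest to PLAT were picked by Pearson's r among 10470 genes that were well above background on every array and whose group means spanned at least 1 log2 unit. They were the transcript THC2609205 (r = 0.97), TRIP6, an adaptor protein of focal adhesions (r = 0.97), the transcript THC2516487 (r = 0.97), ELFN2 (r = 0.96) and PBX3, a homeodomain factor (r = 0.96). The 10 points share 5 treatments and the scaling of each array, so these are descriptions of likeness. The genes were picked for that likeness, so close differences from DMSO follow from the pick and are no support for the drop of PLAT. TRIP6 stood -0.87, 0.33 and -2.22 from DMSO with luteolin, gefitinib and both drugs, close to the -0.93, 0.16 and -2.43 of PLAT, and PBX3 stood -0.70, -0.18 and -1.47.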

How the data were processed

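The mRNA of PC-3 cells was measured on 10 single-color Agilent 4x44K arrays. The intensities deposited by the authors are the processed signal of Feature Extraction (version 10.7.3.1 per the file headers), on a linear scale, background-corrected array by array and not yet normalized across arrays. The deposited value table held the same signal for 45015 of 45015 spots per array (relative tolerance 1e-04), so each array has a single set of values. Groups follow the sample labels.

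The software was limma 3.58.1 under R 4.3.3. After removal of control features and outlier spots, replicate spots were averaged as log2 values, and the 75th percentile of the array was subtracted. Probes well above background (at least 50% of spots) on both arrays of at least 1 group were kept, 28776 of 41000, for 19718 genes, each represented by its brightest probe. A limma model of the 5 groups was fitted to all 10 arrays (5 residual and 3.36 prior degrees of freedom) with Benjamini-Hochberg adjustment over all kept probes. A call needed an adjusted p below 0.05 and a 2-fold difference, or for the interaction that p only. If a group was below background, its level was set per array to the dimmest signal that counted as detected, or to its own signal if brighter, and the fold is a lower limit. Signal over background and 2 arrays per group limit the precision.

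The members, lists and settings were chosen with earlier results of these data known. The genes named are the 7 members, up to 4 genes per list with the largest difference from DMSO among those called, and the 5 genes most correlated with PLAT; some genes that fall under this rule, or on the marker list, are not reported here. Symbols were updated through RefSeq for 23958 probes. Probe coordinates are on hg18 and promoter windows on GRCh38.p14. Alternatives were normexp background correction (offset 50), quantile normalization, other filters, the median over probes, the value table, replicate or slide blocks, only the groups compared, no minimum fold, the methods' t-test, the treatments in the file names and leaving out each array; no scaling between arrays was added after seeing the data. The fit was tested on simulated data.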

Additional observations from a re-analysis of the deposited data

Results flagged for a closer look

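The effect of luteolin differed with and without gefitinib for 2 of the 6 tested members, by the interaction term of limma. Of all genes 34.2% passed the same rule, so the count is close to that share. For SERPINE2 the effect with gefitinib minus that without was -1.27 on the log2 scale: luteolin stood 0.74 above DMSO, and both drugs -0.54 from gefitinib alone. Against 0 h, luteolin stood at -0.14 for this gene, so the size of its term depends on the control. For TFPI2 the difference was -1.37, with 1.00 for luteolin over DMSO and -0.38 for both drugs over gefitinib alone. In both genes the term passed at the adjusted p given above. The labels of the drug-treated arrays enter these terms directly. Under the treatments in the file names SERPINE2 was -0.20 and TFPI2 -0.62, and neither passed (limma, adjusted p = 0.621 and 0.104). The 1 of 6 members that passed there was PLAU, at 2.75 (limma, adjusted p = 0.00035). The share of all genes that passed under the file names was not counted, so this count has none beside it.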

How the results depend on the processing

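With 6 tested genes, each count of calls moves easily, and a count does not show which gene was called. Among the alternatives, all genes were counted only for the scalings against DMSO and for the interaction with the replicate block, as given above. The other counts below have no share of all genes beside them, so they are not a result about the members. With both drugs over DMSO, the SERPINE2 call was lost with quantile normalization (difference 0.99) and without scaling (0.11). PLAU stood at -1.81 in that comparison without scaling. Over DMSO, the count with luteolin (1) became 0 with no filter on dim probes, 4 with no minimum fold, 0 without scaling and 3 with quantile normalization, and 0 to 2 when 1 array was left out. The count with gefitinib (2) became 4 with no minimum fold, 1 without scaling (SERPINB5, lower, with both original calls lost), and 1 with normexp, with only the groups compared and under the file-name treatments, and 1 to 3 with an array left out. The count with both drugs (1) became 3 with no minimum fold, 0 with normexp and 2 with the file names, and 0 to 2 with an array left out. Against 0 h, luteolin (3) gave 1 with the methods' t-test unadjusted, 0 after Benjamini-Hochberg adjustment and 1 with the file names; gefitinib (0) gave 2 with no minimum fold, 1 with the slide block and 3 with the file names, and 0 to 1 with an array left out; both drugs (1) gave 2 with no minimum fold and 0 with the t-test either way and with the file names. Luteolin against gefitinib (2) gave 1, and both drugs against gefitinib (1) gave 2, with the file names, and both drugs against luteolin (1) gave 3 without scaling. The interaction (2) gave 1 without scaling, 4 with the slide block and 1 with the file names, and 1 to 3 with an array left out. The cause was not tested.

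With the replicate number as a block the interaction count was 4, and no other count changed. Same-numbered arrays deviated together with correlations of -0.09 to 0.29 over probes, not all above 0.1, so the numbers were not taken to pair the arrays. Scan time matched the slide one to one, so a scan block was not run.

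Of the differences called in either setting, or at least 2-fold for PLAT, those that turned sign did so under the treatments of the file names, which exchange the drug groups by construction. For PLAT, both drugs became 0.16 against DMSO, 1.09 against gefitinib and 2.59 against luteolin, with an interaction of 3.52. For PLAU, gefitinib became -1.54 against 0 h, luteolin 0.13 against gefitinib, and both drugs 0.34 against 0 h and 1.88 against gefitinib, with an interaction of 2.75. For SERPINB2, gefitinib became -1.91 against 0 h and -1.16 against DMSO, luteolin 0.24 against 0 h, 0.98 against DMSO and 2.15 against gefitinib, and both drugs 2.28 against gefitinib. Without scaling, which was tried after seeing the data, 19 other differences changed sign.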
